A study of Mus musculus with 3 samples.

Results

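The classical complement components and regulators described here are 9 genes, found by exact gene name among the 54532 genes of the deposited table: the C1q chain genes C1qa, C1qb and C1qc, the protease genes C1ra and C1s1, the C4 genes C4b and C4a, C3, and Serping1, the gene of the C1 inhibitor. RNA came from the hippocampus of mice aged 10 months, all of the strain C57BL/6, and the 3 genotypes were WT, PS19, and PS19 with Zbp1+- (called PS19 Zbp1+- here). PS19 mice carry a transgene for mutant human tau driven by the mouse prion protein promoter, and the PS19 Zbp1+- group, labelled heterozygous for Zbp1, carries it too. Zbp1 encodes a sensor of Z-form nucleic acids. Each genotype was 1 library, the labels do not say whether animals were pooled, and no p-value was computed. The intervals below are exact 95% intervals for counting error only, so they compare libraries and not genotypes.

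The classical pathway starts when C1q, a protein built from 3 kinds of chain, binds a target and activates the serine proteases C1r and C1s. These cleave C4 and C2 to form an enzyme that cleaves C3, whose fragments tag surfaces for uptake by phagocytes. The C1 inhibitor shuts off C1r and C1s. In brain, microglia are the main source of C1q, while C4 and C3 are known as products of reactive astrocytes among other cells. C1q and C3 are known for tagging synapses that microglia then remove.

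The whole reads recovered from the table summed to between 16400328 and 17109734 per library. The targeted gene Zbp1 was at 5 (WT), 91 (PS19) and 0 reads (PS19 Zbp1+-), and a count of 0 allows up to 0.0537 FPKM. Over PS19, the exact interval of the ratio reached up to 0.0452, less than 1 allele at the PS19 level would give, while at the WT level this depth cannot tell 1 allele from none. The reads thus do not settle the genotype, which is taken from the label, and PS19 Zbp1+- stands for the library so labelled. The labels do not give sex, and PS19 Zbp1+- stood apart: it had 0 reads of Xist and 268 to 711 reads of each of 4 Y-linked genes (Uty, Kdm5d, Eif2s3y and Ddx3y), while WT and PS19 had at least 11062 reads of Xist and 0 of the Y-linked genes. It also had reads for fewer genes, 21408 against 24741 in WT and 25397 in PS19. All 5 neuronal, 7 astrocyte and 5 oligodendrocyte markers exceeded an FPKM of 1 in each library. These markers do not tell the hippocampus from other brain regions, so the region is taken from the label. Markers of the choroid plexus, an epithelium next to the hippocampus, were high in WT and PS19 and nearly gone from PS19 Zbp1+-: the summed FPKM of 7 markers was 3117, 1907 and 10.7.

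The C1q chains, C4b, C3 and Serping1 all exceeded WT at least 2-fold in PS19, and PS19 exceeded PS19 Zbp1+- at least 2-fold for each of them. C1ra and C1s1 were weakly expressed and stayed under 2-fold on the log2(FPKM + 1) scale, and C4a, the close copy of C4b, had its highest level in PS19 Zbp1+-. Relative to WT, PS19 Zbp1+- had C1q near the WT level, C4b above it, and C3 and Serping1 well below it. The deposited unit, FPKM, divides a gene's fragments by its length in kilobases and by a library size, so levels can be compared between genes. The difference between libraries was taken on the log2(FPKM + 1) scale, which understates differences of weakly expressed genes, and a gene was called at 1 log2 unit. In bulk tissue, fewer cells of a type and less RNA per cell cannot be told apart.

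**Figure D1:**
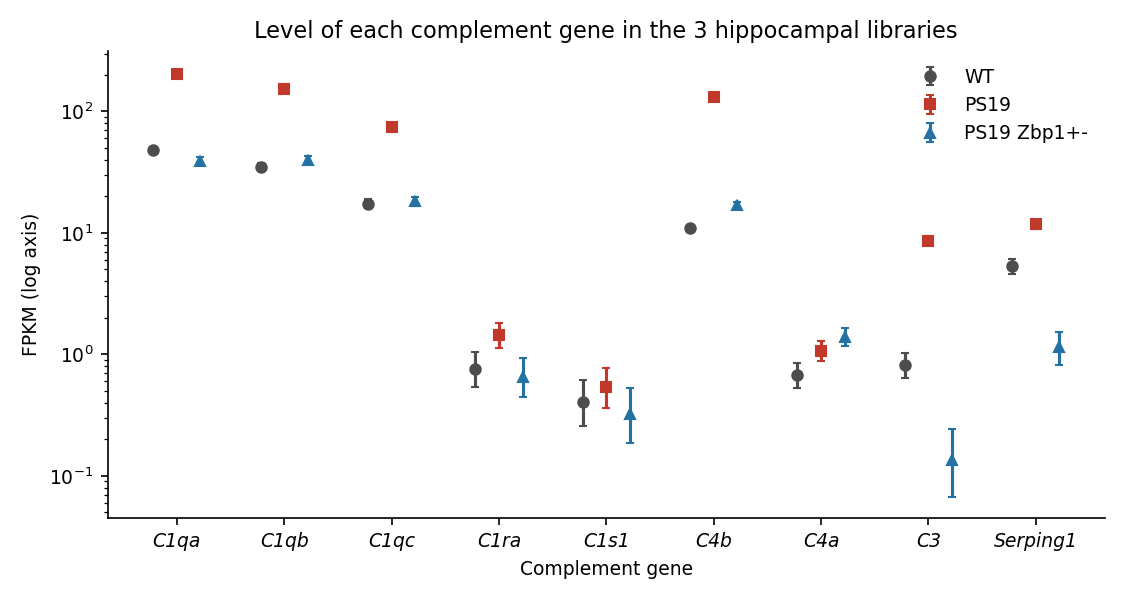
FPKM of the 9 complement genes (log axis) in WT (circles), PS19 (squares) and PS19 Zbp1+- (triangles), 1 library each, with exact 95% intervals for counting error. PS19 is highest for every gene except C4a, and C3 and Serping1 are lowest in PS19 Zbp1+-, below WT.

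Counted over all 9 genes, 6 were called higher in PS19 than in WT, and the median difference over all 9 was 2.05 log2 units. Members were chosen with earlier results of these data known, so the background below describes and does not test. The background is every protein-coding gene that reached 1 FPKM in at least 1 of the compared libraries: of 12703 such genes 280 or 2.2% were called higher here and 0.291% lower, with a median of -0.03. Between PS19 Zbp1+- and PS19, 6 of the 9 were called lower with a median of -1.99, against 659 of 12772 genes or 5.16% called lower, 2% called higher and a median of 0.04. Between PS19 Zbp1+- and WT, 1 of 9 was called lower and 0 higher, with a median of -0.09, against 2.28% of 12436 genes called lower, 1.07% called higher and a median of 0.01. Of the 9 genes, 7 passed the same filter in each comparison with PS19, where C3 and C1ra passed through PS19 alone, and 5 passed in that of PS19 Zbp1+- with WT. C1s1 stayed below 1 FPKM, and C4a is not listed as protein-coding. Scaling changed the background split: of the genes called between PS19 Zbp1+- and PS19, 27.9% were higher, against 11.1% with TPM and 14.7% with total reads, where the background median was -0.23 and -0.12 instead of 0.04. Between PS19 Zbp1+- and WT 32% of the called genes were higher, against 19% and 17.3%, with medians of -0.14 and -0.12. Both comparisons with PS19 share that library, so a high value there enters both differences at once.

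**Figure D2:**
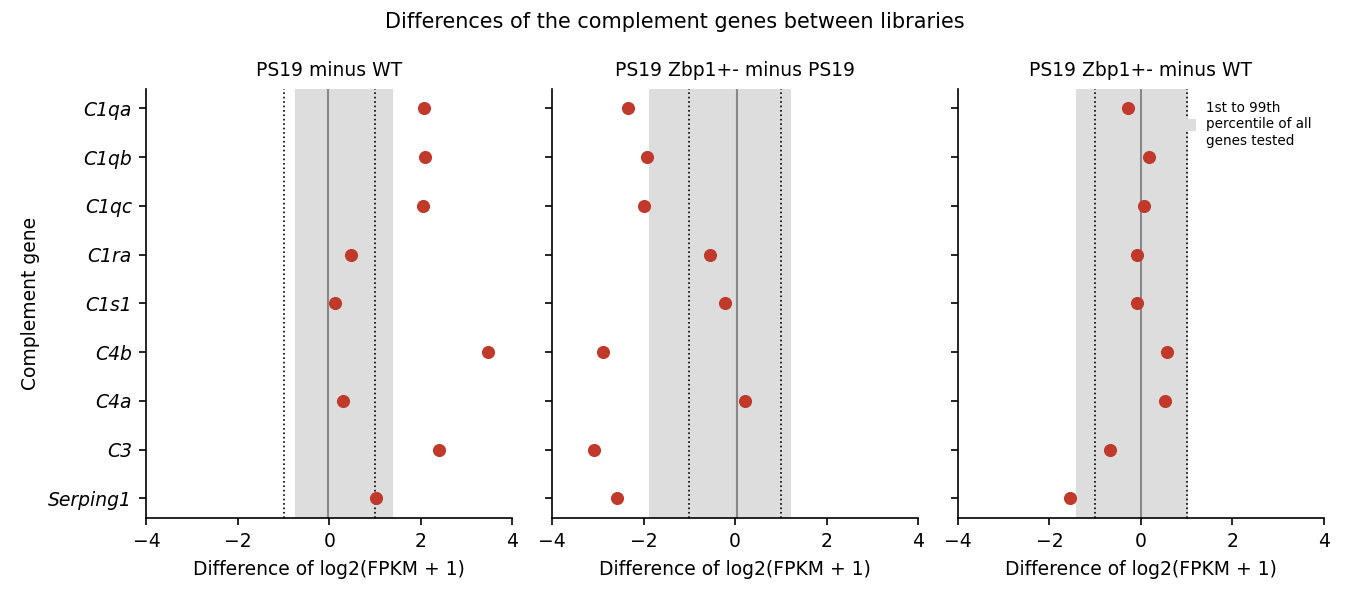
Difference of log2(FPKM + 1) for each of the 9 genes (points) in 3 comparisons of 2 libraries; the grey band spans the 1st to 99th percentile of all protein-coding genes tested, the grey line is their median, and dotted lines mark 1 log2 unit. C1q, C4b and C3 lie right of the band in PS19 minus WT, and Serping1 lies left of it in PS19 Zbp1+- minus WT.

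The 3 C1q genes lie side by side within 18675 bases of chromosome 4 on the minus strand: C1qb at 136880129 to 136886187, C1qc at 136889804 to 136893065 and C1qa at 136895917 to 136898803 (GRCm38). The A chain gene C1qa stood at 48.0 FPKM in WT (861 reads), 205 in PS19 (3680 reads) and 39.4 in PS19 Zbp1+- (648 reads). For C1qb, the B chain gene, the levels were 35.1, 154 and 39.7 in the same order, from 658, 2889 and 683 reads. For C1qc, the C chain gene, they were 17.4, 75.0 and 18.2, from 580, 2503 and 556 reads. PS19 stood far above both other libraries for each chain, and WT and PS19 Zbp1+- were close to each other.

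Between PS19 and WT the read ratio per library size was 4.27 for C1qa (interval 3.96 to 4.60), 4.38 for C1qb (4.02 to 4.78) and 4.31 for C1qc (3.93 to 4.72). These intervals overlap, so the chains did not differ from each other beyond counting error in this comparison. From PS19 to PS19 Zbp1+- C1qa was 5.20-fold lower (4.78 to 5.66), C1qb 3.87-fold lower (3.56 to 4.22) and C1qc 4.12-fold lower (3.76 to 4.53). Here the interval of C1qa lay above those of the other chains. Against WT, PS19 Zbp1+- had a ratio of 0.820 for C1qa (0.740 to 0.910), 1.13 for C1qb (1.02 to 1.26) and 1.05 for C1qc (0.929 to 1.18). The sign of the small C1qc difference turned under scaling by total reads (-0.09 log2 units) and under rescaling to equal sums (TPM, -0.09). The C1qb difference, 0.17 log2 units, shrank to 0.02 under both scalings, so C1qb above WT rests on the deposited scaling. That of C1qa went from -0.28 to -0.43 and -0.44.

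The chain makeup can be read within each library, where no scaling enters. C1qa took 41.0% of all C1q reads in WT (38.9% to 43.2%), 40.6% in PS19 (39.6% to 41.6%) and 34.3% in PS19 Zbp1+- (32.2% to 36.5%). C1qb took 31.3%, 31.8% and 36.2% in the same order, and C1qc 27.6%, 27.6% and 29.5%. Per length, C1qa exceeded C1qb 1.37-fold in WT (1.24 to 1.52) and 1.33-fold in PS19 (1.27 to 1.40), while in PS19 Zbp1+- the ratio was 0.993 (0.890 to 1.11). WT and PS19 thus had nearly the same makeup although their C1q levels differed over 4-fold, and PS19 Zbp1+- had proportionally less C1qa at a read total of 1887 against 2099 in WT.

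**Figure D3:**
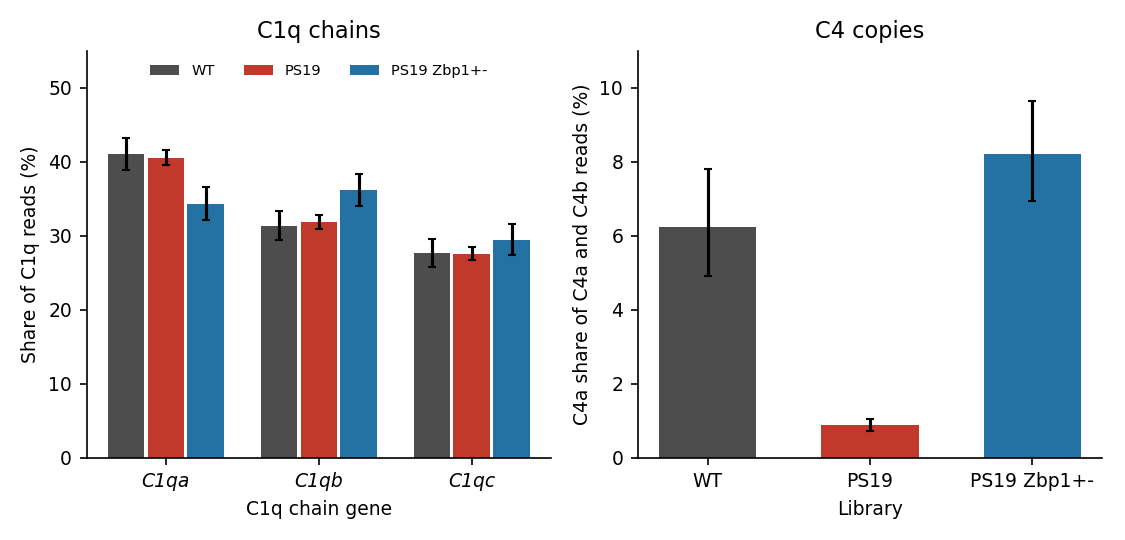
Left, share of all C1q reads (%) that fell on C1qa, C1qb and C1qc in each library. Right, C4a reads as a share (%) of C4a and C4b reads together. Bars start at 0 and error bars are exact 95% intervals for counting error. C1qa is 41.0% in WT and 34.3% in PS19 Zbp1+-, and C4a is 0.874% of C4 reads in PS19 against 6.24% in WT and 8.22% in PS19 Zbp1+-.

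Microglial markers moved with C1q in part. Of 9 markers fixed as a list, 4 were called higher in PS19 than in WT, Fcrls, Cx3cr1 and Csf1r among them, and the list summed to 89.8 (WT), 233 (PS19) and 111 FPKM (PS19 Zbp1+-). The list's read ratios between PS19 and WT ran from 0.904 to 7.45 with a median of 2.04. Csf1r, the receptor microglia need to survive, had a ratio of 2.77 (2.61 to 2.94). P2ry12, a purine receptor of resting microglia, had 0.904 (0.794 to 1.03). The C1q ratios of 4.27 to 4.38 exceeded those of 7 of these 9 markers and lay below those of Fcrls and Cx3cr1. In PS19 Zbp1+- over WT, where the C1q ratios were 0.820 to 1.13, Fcrls and Cx3cr1 were called higher with ratios of 3.52 and 2.64, Gpr34 had 0.551, and the median of the 9 was 1.16. No marker of the list was at 0 in any library. Their part in the C1q differences was not tested.

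The promoter of C1qb is shown because the chains had overlapping ratios between PS19 and WT, although C1qa departed in PS19 Zbp1+-. Of the 9 genes, 5 (C1qb, C1qc, C1ra, C1s1 and C3) had an entry in the RefSeq promoter table (build GRCm38.p6); C1qa, C4b, C4a and Serping1 did not. The 250 bases before the start site of C1qb (chr4:136886201-136886450, minus strand) are printed 5′ to 3′, and capitals mark a match to the core GAGGAA of PU.1, a transcription factor of microglia and macrophages.
C1qb: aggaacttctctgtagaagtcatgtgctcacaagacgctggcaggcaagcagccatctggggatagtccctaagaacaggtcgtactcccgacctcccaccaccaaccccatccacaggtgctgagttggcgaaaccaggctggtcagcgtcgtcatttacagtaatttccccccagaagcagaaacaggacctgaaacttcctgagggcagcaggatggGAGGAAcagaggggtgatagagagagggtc
Both strands were searched. C1qb and C1qc each held 1 match, and C1ra, C1s1 and C3 none. The core is short, and 23.3% of all 32851 windows of this length in the table held it. Motifs bound downstream of interferon receptors were searched too: no member window held TTCNNNGAA (GAS, in 7.02% of windows) or the ISRE, searched as a pair of GAAA cores with any 2 bases between them (in 2.98%). That says only that these letters are not in these windows.

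C1ra (chromosome 6, 124512405 to 124523443, plus strand) and C1s1 (124530345 to 124542359, minus strand) encode the 2 proteases carried by C1q. The levels of C1ra were 0.758 FPKM (WT), 1.44 (PS19) and 0.657 (PS19 Zbp1+-), from 39, 74 and 31 reads. C1s1 had 0.408, 0.536 and 0.323, from 22, 29 and 16 reads. Both genes had their highest value in PS19, at levels far under those of C1q. The C1ra ratio between PS19 and WT was 1.89 (1.27 to 2.87), a difference of 0.47 on the log2(FPKM + 1) scale, and PS19 Zbp1+- was 2.19-fold below PS19 (1.42 to 3.44). For C1s1 the ratio between PS19 and WT was 1.32 (0.730 to 2.40), so a difference was not detectable at this depth. The same held for PS19 Zbp1+- over PS19, at 0.603 (0.306 to 1.15).

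Both protease genes have near-identical copies that could share reads. The longest transcript of C1ra was 97.9% identical to that of C1rb over 2431 aligned bases, and C1s1 was 95.9% identical to C1s2 over 2643. Of all stretches of 50 bases in C1ra, 48.0% also occur in C1rb, and 24.3% of those in C1s1 occur in C1s2. In the order WT, PS19, PS19 Zbp1+-, the copy C1rb held 1, 1 and 0 reads and C1s2 held 7, 23 and 2. C1s2 was thus highest in PS19 as well, with a ratio to WT of 3.28 (1.36 to 9.05). Gm16567, an antisense gene over C1s1, had 0 reads in each library.

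C4b (chromosome 17, 34728380 to 34743882, minus strand) encodes C4, the substrate of C1s. Its level was 11.01 FPKM (WT), 132 (PS19) and 16.97 (PS19 Zbp1+-), from 1082, 13037 and 1530 reads. PS19 was 12.0-fold above WT (11.3 to 12.8), and of the other 8 genes C3 alone had an interval that reached this ratio. PS19 Zbp1+- was 7.80-fold below PS19 (7.40 to 8.23) and 1.54-fold above WT (1.43 to 1.67). C4b thus lay above WT in PS19 Zbp1+-, unlike C1qa, C3 and Serping1. Per length, C4b stood at 0.229 (WT), 0.647 (PS19) and 0.431 (PS19 Zbp1+-) of C1qa, and the 3 intervals did not overlap.

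C4a (chromosome 17, 34809092 to 34823464, minus strand), known as the sex-limited protein gene, is a neighbouring copy that the table lists as a processed transcript, not as protein-coding. The 3 libraries held 0.672 FPKM (WT), 1.07 (PS19) and 1.39 (PS19 Zbp1+-) of it, from 72, 115 and 137 reads. C4a was the 1 gene of the 9 with its highest level in PS19 Zbp1+-. That library alone held Y-linked reads and lacked Xist reads, so sex and the Zbp1 label cannot be told apart here. PS19 was 1.59-fold above WT (1.18 to 2.17), and PS19 Zbp1+- was 1.30-fold above PS19 (1.01 to 1.68). The latter difference, 0.21 log2 units, kept its sign but shrank to 0.10 under scaling by total reads and 0.08 under TPM. As a share of C4a and C4b reads together, C4a was 6.24% in WT (4.91% to 7.79%), 0.874% in PS19 (0.722% to 1.05%) and 8.22% in PS19 Zbp1+- (6.94% to 9.64%). The 12.0-fold difference in C4b stood beside a 1.59-fold difference in reads assigned to its copy.

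The 2 transcripts are 95.9% identical over 5378 aligned bases, with an identical run of 433 bases. Of all stretches of 50 bases in C4b, 35.2% also occur in C4a, and 16.5% of those of 100 bases, so reads there cannot be assigned to 1 gene. The coding stretch of 60 bases with the most differences, 13, lies in exon 21 of 41 of C4b (chr17:34735430-34735489, minus strand). It shows the kind of sequence on which the split of reads rests. Capitals mark the bases that differ, 5′ to 3′, from the GENCODE M21 transcripts.
C4b: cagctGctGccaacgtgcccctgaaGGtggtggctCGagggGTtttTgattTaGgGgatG
C4a: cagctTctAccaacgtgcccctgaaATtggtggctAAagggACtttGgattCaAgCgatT
The rest of the transcripts is more alike than this stretch.

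Genes around C4b and C4a did not share the C4b pattern. Of 16 other protein-coding genes within 100 kb of the pair, 11 reached an FPKM of 1 in either library, and 0 of them were called in any of the 3 comparisons. Their differences between PS19 and WT ran from -0.41 to 0.31 log2 units, against 3.47 for C4b. Around the C1q genes, 0 of 3 tested neighbours were called, and around C1ra and C1s1 0 of 2. Of all genes tested, 2.2% were called higher and 0.291% lower in PS19 against WT. For PS19 Zbp1+- the shares were 2% and 5.16% against PS19, and 1.07% and 2.28% against WT. At such shares, 0 called among so few genes is an ordinary count. Among 3 neighbours of C3, Vav1, a signalling gene of blood cells, was called higher in PS19 than in WT at 1.01. Among 10 neighbours of Serping1, Rtn4rl2, a neuronal receptor gene, was called higher in PS19 Zbp1+- than in PS19 at 1.51.

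Astrocyte markers were highest in PS19, as C4b was, and so were oligodendrocyte markers. The 5 oligodendrocyte markers had ratios of 1.75 to 1.78 between PS19 and WT. All 5 were called lower in PS19 Zbp1+- against PS19. All 7 astrocyte markers had more reads per library size in PS19 than in either other library, and 2 (Gfap and Aqp4) were called higher in PS19. The summed FPKM was 413, 1265 and 425 in WT, PS19 and PS19 Zbp1+-. Gfap, the filament gene of reactive astrocytes, had a ratio of 7.81 between PS19 and WT (7.62 to 8.002), and Aqp4, a water channel gene, 2.80 (2.66 to 2.95). The other 5 had ratios of 1.29 to 1.59, the highest being that of S100b. None was at 0, and their part in the C4b difference was not tested.

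C3 (chromosome 17, 57203970 to 57228136, minus strand) encodes the component on which all complement pathways meet. The level was 0.823 FPKM in WT (73 reads), 8.64 in PS19 (768 reads) and 0.135 in PS19 Zbp1+- (11 reads). The 3 libraries were widely separated, and PS19 Zbp1+- lay below WT, not near it. PS19 was 10.5-fold above WT (8.25 to 13.5), and PS19 Zbp1+- was 63.9-fold below PS19 (35.5 to 129) and 6.09-fold below WT (3.21 to 12.7). The low value comes from the library with reads for the fewest genes, a difference that the counting interval does not cover. On the log2(FPKM + 1) scale the difference between PS19 Zbp1+- and WT was -0.68 and was not called. It was called at a pseudocount of 0.1 (-1.97), at 0.5 (-1.06), under TPM scaling (-1.46) and as a plain read ratio (-2.61), but not under scaling by total reads (-0.72).

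The ratio of C4b to C3, per length, was 13.4 in WT (10.6 to 17.2), 15.3 in PS19 (14.3 to 16.5) and 126 in PS19 Zbp1+- (70.0 to 252). C4b and C3 therefore kept nearly the same proportion in WT and PS19, and only PS19 Zbp1+- departed from it among the 3 libraries.

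The 250 bases before the C3 start (chr17:57228137-57228386, minus strand) are shown beside those of C1s1 (chr6:124542360-124542609, minus strand), the member that differed least between PS19 and WT. Capitals mark matches to TTGCNNAA, a C/EBP motif, on either strand.
C3: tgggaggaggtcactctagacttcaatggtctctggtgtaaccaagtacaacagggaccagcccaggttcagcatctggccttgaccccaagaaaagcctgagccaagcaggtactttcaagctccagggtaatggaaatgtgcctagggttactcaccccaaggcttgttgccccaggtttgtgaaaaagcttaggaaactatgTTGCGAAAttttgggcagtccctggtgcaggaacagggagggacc
C1s1: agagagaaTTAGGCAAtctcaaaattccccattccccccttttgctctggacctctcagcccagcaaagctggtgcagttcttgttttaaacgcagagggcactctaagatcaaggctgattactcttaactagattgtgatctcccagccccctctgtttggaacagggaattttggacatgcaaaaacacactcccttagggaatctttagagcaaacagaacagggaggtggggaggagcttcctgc
Each printed window held 1 match, as did 9.56% of all windows in the table, and C1qb, C1qc and C1ra held none. C1s1 had another window in the table, from a nearby start site, and that window held 0 matches. Whether the matches separate C3 from C1s1 thus depends on which C1s1 start site is taken.

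Serping1 (chromosome 2, 84765387 to 84775444, minus strand) encodes the C1 inhibitor, the one regulator among the 9 genes. Its level was 5.31 FPKM (WT), 11.8 (PS19) and 1.14 (PS19 Zbp1+-), from 213, 473 and 42 reads. PS19 was 2.22-fold above WT (1.88 to 2.62), which is 1.02 on the log2(FPKM + 1) scale and barely past the threshold. PS19 Zbp1+- was 10.3-fold below PS19 (7.51 to 14.5) and 4.65-fold below WT (3.33 to 6.64), and it was the 1 gene of the 9 called between PS19 Zbp1+- and WT, at -1.56. Per length, Serping1 stood at 0.111 (WT), 0.0575 (PS19) and 0.0290 (PS19 Zbp1+-) of C1qa. The inhibitor was thus lowest relative to C1qa in PS19 Zbp1+-, with intervals that did not overlap.

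Markers of border tissues were also low in the library where C3 and Serping1 lay below WT. Against WT, all 7 choroid plexus markers were called lower in PS19 Zbp1+-, with read ratios from 0.00232 to 0.136, and none was at 0. Monocyte and border macrophage markers summed to 2.91 (WT), 3.34 (PS19) and 0.339 FPKM (PS19 Zbp1+-), and in the last library 3 of 7 (Pf4, Ly6c2 and Ccr2) were at 0. The mannose receptor gene Mrc1 had 80, 119 and 6 reads. Of 6 fibroblast and meningeal markers 2 were called lower in PS19 Zbp1+- against WT: the transporter gene Slc6a13 and the collagen gene Col1a2, with 375, 383 and 56 reads. Dcn, the decorin gene, held 1140, 474 and 1910 reads. The summed FPKM of that list was 21.4, 13.6 and 23.99. Their part in the C3 and Serping1 levels was not tested, and all lie in 1 library together with the Y-linked reads.

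**Figure D4:**
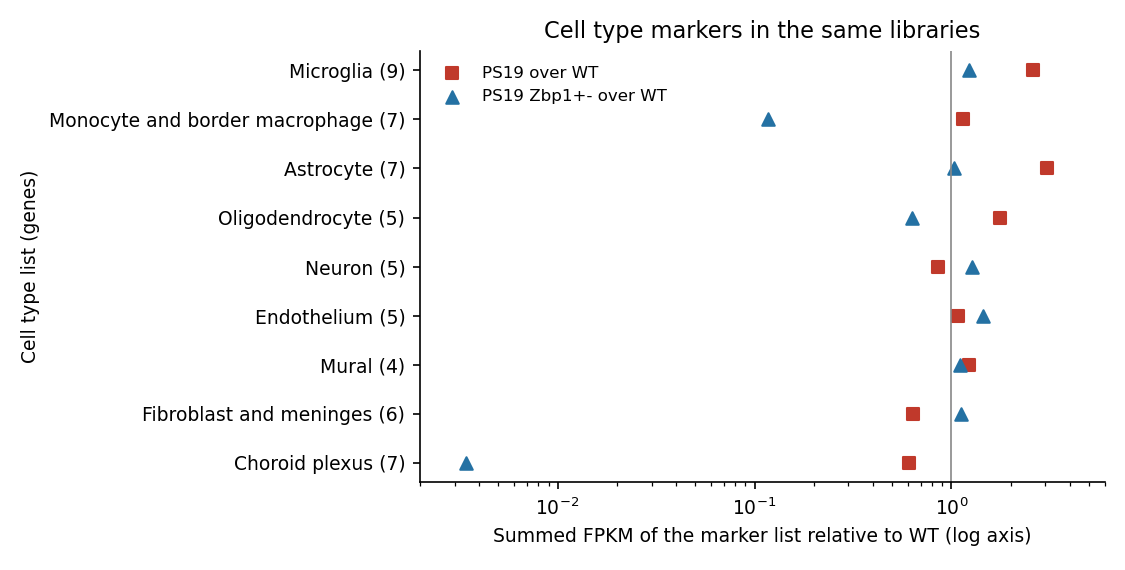
Summed FPKM of each cell type marker list relative to WT (log axis), for PS19 (squares) and PS19 Zbp1+- (triangles), 1 library each, with the number of genes in parentheses. Microglial, astrocyte, oligodendrocyte, mural and border macrophage sums are highest in PS19. The choroid plexus and border macrophage sums of PS19 Zbp1+- lie at 0.00344 and 0.117 of WT.

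The sums of the remaining lists follow in the order WT, PS19, PS19 Zbp1+-. Oligodendrocyte sums were 685, 1210 and 434 and all 5 genes were called lower in PS19 Zbp1+- against PS19. Neuronal sums were 655, 557 and 829, endothelial sums 37.2, 40.1 and 54.0, and mural sums 28.7, 35.2 and 31.6. Genes within these lists went both ways. PS19 Zbp1+- exceeded WT for 3 of 5 neuronal, 3 of 5 endothelial and 3 of 4 mural genes. The neuronal Slc17a7 had 206, 172 and 371 FPKM but Snap25 234, 180 and 197. The endothelial Cldn5 had 22.4, 19.1 and 38.1 but Pecam1 2.90, 3.05 and 2.47. The 4 liver genes had a summed FPKM of at most 0.0964, and 2, 2 and 3 of them were at 0.

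The order of levels also differed between libraries. In WT it ran C1qa, C1qb, C1qc, C4b, Serping1 and then C3, C1ra, C4a and C1s1, and each of the last 3 overlapped its neighbour above within counting error. In PS19, C4b stood above C1qc, at 132 against 75.0 FPKM. In PS19 Zbp1+-, C1qb and C1qa overlapped at the top, C1qc and C4b overlapped next, and each of Serping1, C1ra, C1s1 and C3 overlapped its neighbour above. C3 thus went from rank 6 in WT and PS19 to rank 9.

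Outside these 9 genes, 56 complement genes were listed in 7 groups. In the group of other initiating proteases and lectins, 0 of 12 were called between PS19 and WT, and Masp1 was the 1 gene to reach an FPKM of 1 (0.973, 1.16 and 0.893). C2, the partner of C4 in the C3-cleaving enzyme, had 18, 28 and 8 reads. Of the alternative pathway, 0 of 3 were called. Cfp, the stabilizer properdin, had 12.4, 10.6 and 7.72 FPKM, Cfb had at most 4 reads, and Cfd had 0 in each library. Of the terminal pathway that builds the membrane pore, 0 of 7 were called, and C8g alone passed an FPKM of 1, at 2.45, 2.94 and 3.17. The other 6 terminal genes had at most 12 reads in any library.

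Among 8 soluble regulators, 0 were called between PS19 and WT. Clu, clusterin, which binds the terminal complex, had 318, 506 and 284 FPKM in the order WT, PS19, PS19 Zbp1+-, and Vtn, vitronectin, 41.1, 43.4 and 47.1. Among 13 membrane regulators 0 were called between PS19 and WT, the 4 with the largest differences being Cd59a (-0.41), Susd4 (-0.38), Cd46 (0.30) and Cd55 (-0.29). Between PS19 Zbp1+- and PS19, Cd59a, which blocks the membrane pore, was lower at -1.52 and Sez6, a neuronal gene with complement control domains, was higher at 1.16.

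Part of the receptors that read complement tags followed C1q and C3. Of 9 receptor genes 3 were called higher in PS19: Itgax, an integrin chain of complement receptor 4, at 2.82, its partner chain Itgb2 at 2.21 and the C3a receptor C3ar1 at 1.69. Itgam, the other chain partner of Itgb2, was not called at 0.72, although its read ratio was 2.27 (1.77 to 2.94). It was called lower in PS19 Zbp1+- against PS19, at -1.02. The weakly expressed C5ar1 and C5ar2 were not called between PS19 and WT either, at read ratios of 3.21 (1.73 to 6.33) and 3.63 (1.83 to 7.84). Cd93 and Cr2 had ratios of 1.21 and 0.798, and Vsig4 had 0 reads. C3ar1 had 16, 217 and 20 reads, and Itgb2 73, 529 and 93. Over WT, PS19 Zbp1+- had a ratio of 1.36 for C3ar1 (0.671 to 2.81) and 1.39 for Itgb2 (1.01 to 1.91). Those of Itgam and Itgax were 0.635 (0.444 to 0.901) and 0.389 (0.110 to 1.14). Of the 9 receptor genes, 6 lay above WT in PS19 Zbp1+- and 0 were called. C3 lay 6.09-fold below WT. Itgax had 14, 602 and 5 reads. The C1q-like genes C1ql1, C1ql2 and C1ql3, synaptic proteins with a C1q domain that do not act in the complement cascade, did not move with C1q: C1ql2 and C1ql3 had ratios of 0.666 and 0.671 for PS19 over WT, and C1ql1 differed by 0.14 log2 units.

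**Figure D5:**
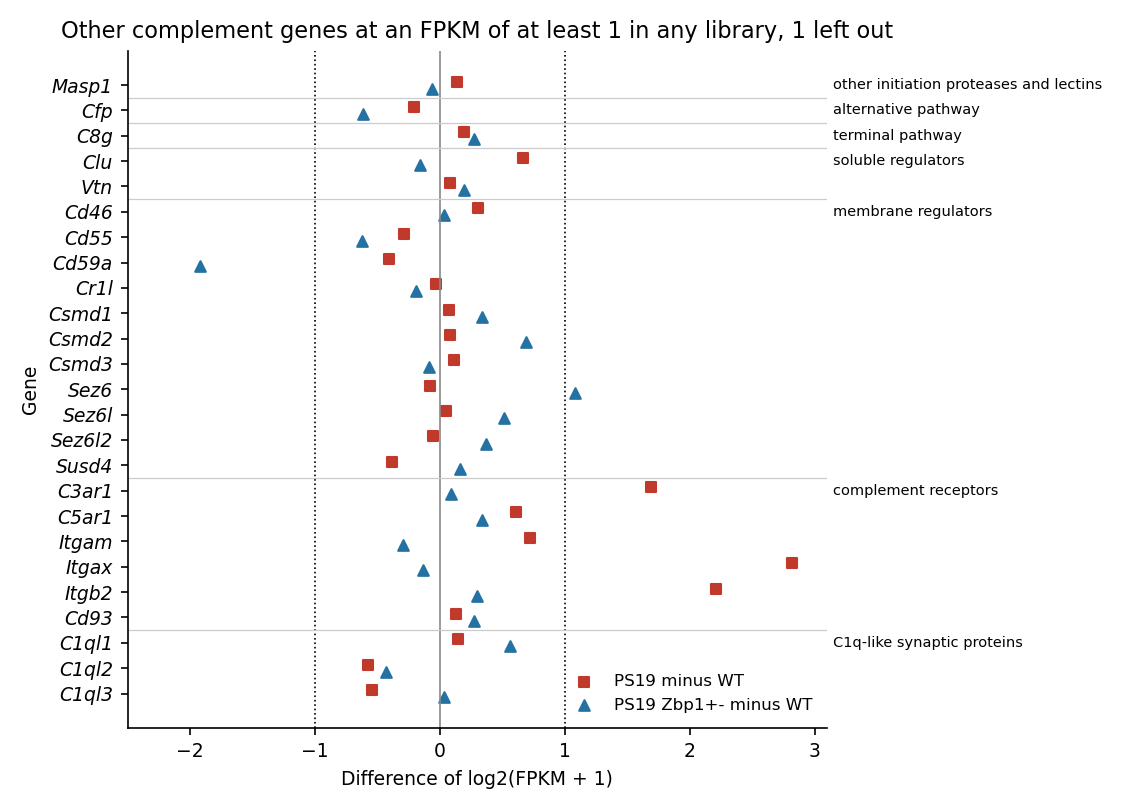
Difference of log2(FPKM + 1) against WT for the complement genes outside the 9 with an FPKM of at least 1 in any library, 1 left out, for PS19 (squares) and PS19 Zbp1+- (triangles), grouped by role; dotted lines mark 1 log2 unit. Itgax, Itgb2 and C3ar1 lie beyond the line in PS19, and Cd59a lies at -1.92 in PS19 Zbp1+-.

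Genes with the most similar pattern were sought among 11663 other protein-coding genes, as the distance between their pair of log2 differences (PS19 minus WT, PS19 Zbp1+- minus PS19) and that of a member. Only 3 libraries enter, so the likeness describes 2 differences. Closest to C1qa were Cxcl10, Oasl2 and Slamf9 (distances 0.05, 0.10 and 0.14), and 20 genes lay within 0.5. Closest to C4b were Lag3 at 0.41, Gfap at 0.54 and Itgax at 0.66, and 1 gene lay within 0.5. Of the closest genes, Cxcl10 is a chemokine gene, Lag3 an immune checkpoint gene, and Oasl2 and the Ifit genes are induced by interferon. Closest to C3 were Ifit1 at 0.03, Plin4 at 0.31 and Ifit3b at 0.36, and closest to Serping1 were Spp1 at 0.15, H2-K1 at 0.18 and H2-D1 at 0.26 (the H2 genes encode antigen-presenting proteins). Ifit1 had 39, 400 and 5 reads, and H2-K1 711, 1465 and 164. A small distance on this scale need not mean an equal fold, since Cxcl10 had a read ratio of 14.3 between PS19 and WT and C1qa 4.27.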

How the data were processed

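The authors deposited 1 table of FPKM values for 3 libraries. Trim Galore 0.6.5, STAR 2.5.3a and featureCounts 2.0.4 are named in the submitters' processing notes, which give the build mm39, while 98.3% of 54409 gene positions, those of all 9 members included, equal GENCODE M21 (GRCm38), so positions are given as GRCm38. Whether counting used strand is not given in the sources used here. FPKM times length was a whole multiple of 1 step (tolerance 0.05 reads) for 100% of values, which gave whole reads and implied library sizes of 15826984 to 17287957. In PS19 Zbp1+- the gene reads summed to 17109734, above its implied size of 15826984. In WT and PS19 the sums, 16746085 and 16400328, lay below the implied sizes, 17253479 and 17287957. Values per library size thus put PS19 Zbp1+- higher against the other libraries than scaling by total reads does. Differences were taken on log2(FPKM + 1), with a background of protein-coding genes that reached 1 FPKM in at least 1 of the compared libraries, and called at 1 log2 unit. Read ratios had exact (Clopper-Pearson) 95% intervals; levels had exact Poisson ones. Without molecular identifiers, PCR copies of a molecule count as separate reads, so intervals cover counting error only. The limit for 0 reads was 3 reads.

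Members and lists were chosen with earlier results of these data known. Named genes were the 9 members, Zbp1 and the top genes of each list, up to 4. The top genes had the largest difference between PS19 and WT, at an FPKM of at least 1 in any library. For each of 4 members the 3 most similar genes were named, from genes with at least 100 reads in PS19. Other named genes were chosen after their values were seen, as were the motifs after the sequences and the neighbour window. On simulated data for PS19 minus WT (54532 genes), all 200 genes changed 4-fold were called in the right direction, with 2 of 12066 unchanged genes. The changed genes were drawn from well-expressed genes only, and counting noise alone was simulated. The simulation therefore says nothing about changes in weakly expressed genes or about variation between animals. Tools were biopython 1.88, scipy 1.17.1, pandas 2.3.3, numpy 2.4.6 and matplotlib 3.10.9 under Python 3.11.15. Alternatives were other pseudocounts, filters, thresholds and scalings. Some listed genes are not reported here.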

Additional observations from a re-analysis of the deposited data

How the results depend on the processing

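With 1 library per genotype no value has a replicate check. No paired analysis was possible because each genotype has 1 library. Of 135 values of single genes under 5 alternatives, 100 moved by no more than counting error, 35 moved by more and 0 called values changed sign. The call of a gene changed 8 times, for C1ra (PS19 Zbp1+- minus PS19), C3 and C4a (PS19 Zbp1+- minus WT). The count of called genes stayed at 5 or 6 between PS19 and WT, and at 4 to 7 between PS19 Zbp1+- and PS19. Between PS19 Zbp1+- and WT it was 1, but 2 with pseudocounts of 0.1 and 0.5, under TPM scaling and at a threshold of 1.5-fold, 3 as read ratios without pseudocount (added after the data were seen; C4a higher, C3 and Serping1 lower), and 0 at 4-fold or over genes with a mean FPKM of at least 5. The median between PS19 and WT was 2.21 under TPM scaling. Between PS19 Zbp1+- and PS19 it was -2.31 under TPM scaling, -2.17 under scaling by total reads, and -2.35 over the genes that passed an FPKM of 1 or a mean of 5, which are fewer. The small median between PS19 Zbp1+- and WT turned positive, to 0.06 and 0.12, over the 5 and 4 genes left by these filters. Over the alternatives, the share of background genes called higher in PS19 against WT ran from 0.291% (4-fold) to 6.34% (1.5-fold), and that called lower in PS19 Zbp1+- against PS19 from 0.814% to 12.1% at the same thresholds. In the latter comparison the count of lower genes was 659, but 1495 under TPM scaling. Low reads limit C1s1, C1ra and, in PS19 Zbp1+-, C3.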
